A study of Mus musculus with 6 samples.

Results

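The transcripts of 10 transcription factors that act around the step from cycling large pre-B cells to resting small pre-B cells were followed in RNA from early LPre-B cells, the earlier large pre-B cells of mouse bone marrow. The factors were *Ikzf1*, *Ikzf2*, *Ikzf3*, *Irf4*, *Irf8*, *Spib*, *Spi1*, *Bach2*, *Bcl6* and *Mef2c*. They were chosen by name for their roles, with earlier results of these data known. Each was found in the expression table by its Entrez identifier, so that 10 of 10 members were measured among 13426 genes. Control (Ctrl) mice were *Upf1* Flox/Flox, *Mb1* +/+ and *Upf1*-cKO mice were *Upf1* Flox/Flox, *Mb1* Cre/+, with 3 libraries per group. Both groups carried the floxed *Upf1* alleles, in which internal exons lie between loxP sites. Cre recombinase was driven from the *Cd79a* (*Mb1*) locus in B lineage cells, so Cre and the loss of a working *Cd79a* allele came together with the deletion and cannot be told apart from it. Per the study's methods, the mice were on a C57BL/6 background, and the gate for the sorted cells included Lineage-negative, B220+, surface IgM-negative, CD43+, large and CD2-negative cells. UPF1 is an RNA helicase at the centre of nonsense-mediated mRNA decay, and the comparison sets out how the transcripts of these factors differed between the groups. The study reports that *Upf1*-cKO early LPre-B cells gave no PCR bands for a fully assembled heavy chain gene. It also reports that intracellular heavy chain was rare in their CD43+, CD2-negative B cells. Loss of UPF1 and a different make-up of the sorted cells cannot be told apart here.

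In the bone marrow, a B cell precursor that has assembled a heavy chain displays it with the surrogate light chain as the pre-B cell receptor (pre-BCR). Signals from this receptor first drive a burst of division together with interleukin 7, and then help to switch on a group of transcription factors that end the burst and open the light chain loci. Ikaros and Aiolos, the products of *Ikzf1* and *Ikzf3*, switch off the surrogate light chain and cell cycle genes. IRF4 and IRF8 promote light chain recombination, often bound to DNA beside the ETS factors PU.1 (*Spi1*) and Spi-B. BACH2 and BCL6 are repressors that act at the pre-B checkpoint, and MEF2C acts with them in survival and maturation.

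Of the 10 factors, 8 were lower in *Upf1*-cKO cells, 1 was higher and 1 did not pass the test (limma, Benjamini-Hochberg adjusted p below 0.05 over all genes). *Ikzf3* and *Irf4* fell the furthest, to 10.8% and 25.9% of their Ctrl means. *Bach2*, *Bcl6*, *Spib*, *Ikzf1* and *Spi1* fell to between 30.1% and 43.2% of Ctrl. *Mef2c* was lower by a small margin, *Irf8* overlapped between groups, and *Ikzf2* was higher from a level close to the detection limit. The background was wide, because 25.0% of all genes were called lower and 27.7% were called higher. A fall of at least 1 on the log2 scale was called for 7 of the 10 factors, against 3.54% of all genes, and a rise of that size for 1 of 10, against 7.50% of all genes. The median log2 fold change was -1.41 over the 10 factors and 0.01 over all genes. The factors were chosen with earlier results known, so such contrasts are description only. In 8 of the 10 factors every *Upf1*-cKO library lay below every Ctrl library, as it did for 28.0% of all genes. These values are normalised reads per gene, a level scaled by library but not by gene length, and each fold change was fitted on log2(value + 1).

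**Figure D1:**
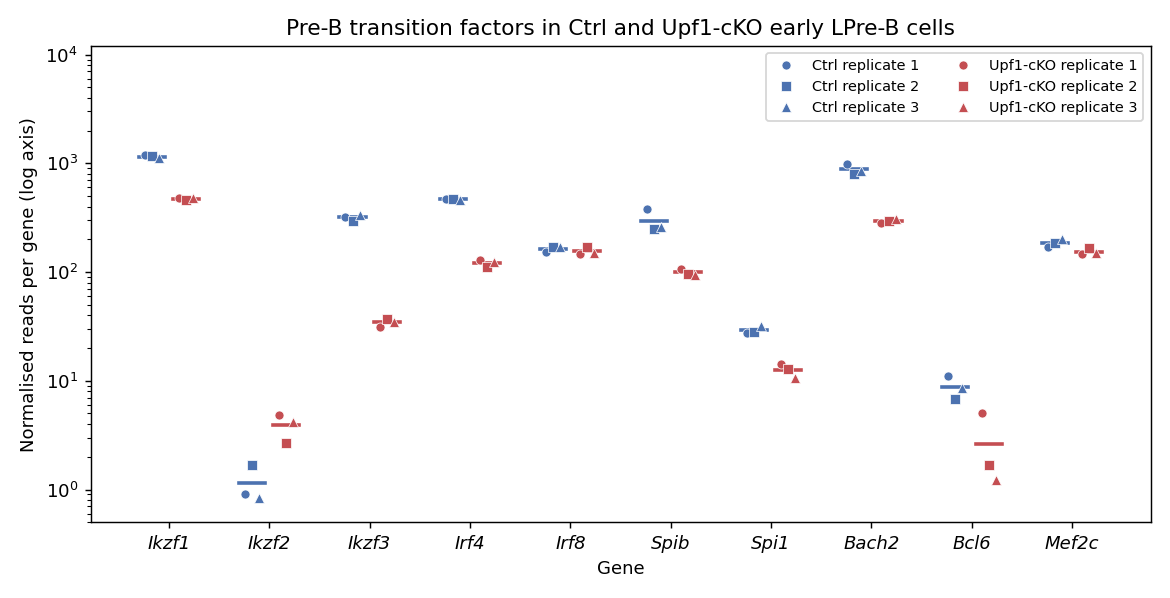
Normalised reads per gene (log axis) of the 10 factors, with 1 point for each library (circle, square and triangle for replicates 1, 2 and 3; blue for Ctrl, red for *Upf1*-cKO) and a bar at each group mean. The *Upf1*-cKO points lie below all Ctrl points for 8 genes, above them for *Ikzf2*, and among them for *Irf8*.

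The libraries held between 9732498 and 11006834 reads in the table's genes. *Upf1* itself was not lower in the libraries labelled *Upf1*-cKO, with 308, 283 and 300 normalised reads (rounded) against 260, 203 and 259 in Ctrl (log2 fold change 0.31, SE 0.09, adjusted p = 0.00696). That call was lost without limma's trend and robust estimation (adjusted p = 0.0685) and on centring library medians (0.20, adjusted p = 0.0645). A count over the whole gene does not resolve the deleted exons, so this value does not check the labels, and every direction below is that of the libraries as labelled. *Cd79a*, the locus that carries Cre, fell from 221 to 73.3 normalised reads (log2 fold change -1.58, adjusted p = 1.24e-11). All 12 early B lineage markers were measured, with summed levels of 2539 to 2808 in Ctrl and 2991 to 3220 in *Upf1*-cKO. Neutrophil markers summed to 128, 22.8 and 15.8 normalised reads in Ctrl 1, 2 and 3 and to 344 to 481 in *Upf1*-cKO, and 7 of 12 passed the test as higher. The calls of *S100a8*, *S100a9*, *Ltf* and *Retnlg* were lost when any library but Ctrl 1 was left out (for *S100a9*, adjusted p = 0.0665 to 0.0825). The *Ltf* call was also lost with replicate numbers as a block (limma, adjusted p = 0.0744). That of *Retnlg* was lost with DESeq2 (0.0624), and in limma with a pseudocount of 0.1 (0.0703) or none (0.0782). Summed monocyte and macrophage markers overlapped, at 99.7 to 145 against 103 to 132, with 1 of 9 called higher (*Lyz2*, 0.76, adjusted p = 0.0203, groups not overlapping) and 1 lower (*Itgam*, -0.42, adjusted p = 0.0199). *Lyz2* lost its call without Ctrl 1 (adjusted p = 0.127) or *Upf1*-cKO 3 (0.0525), and *Itgam* without any library but Ctrl 3 or *Upf1*-cKO 1 (0.0715 to 0.103), on scaling to total reads (0.195) and without limma's trend and robust estimation (0.0822). *Cd14* and *Fcgr1* had no entry in the table. T cell markers such as *Cd3e*, *Cd4* and *Cd8a* had no entry either. In bulk samples, fewer cells of a type and less RNA per cell cannot be told apart.

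*Ikzf1*, which encodes Ikaros, the founding zinc finger factor of its family and a brake on pre-B cell division, spans chr11:11684962-11772930 (GRCm38, plus strand). It gave 1180, 1165 and 1108 normalised reads in Ctrl and 479, 463 and 478 in *Upf1*-cKO. The libraries within each group lay close together and the groups were far apart. The mean fell 2.43-fold, from 1151 ± 37.95 to 473 ± 9.18 (SD, n = 3; log2 fold change -1.28, SE 0.07, 95% interval -1.42 to -1.14, adjusted p = 2.66e-11). Between 4906 and 11526 reads stood behind each library's value. By fold change it ranked 253 from the lowest of all 13426 genes, and *Ikzf1* was the most abundant of the 10 factors per kilobase in both groups.

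*Ikzf3*, which encodes Aiolos, the partner of Ikaros that accumulates with pre-BCR signalling, spans chr11:98464610-98546031 on the minus strand. Its levels were 323, 297 and 334 normalised reads in Ctrl and 31.3, 37.0 and 34.9 in *Upf1*-cKO. Every *Upf1*-cKO library was far below the lowest Ctrl library. The fall was 9.24-fold, from 318 ± 19.3 to 34.4 ± 2.91 (SD, n = 3; log2 fold change -3.17, SE 0.09, 95% interval -3.35 to -2.99, adjusted p = 3.07e-15). Its fold change ranked 7 from the lowest of all genes. The *Upf1*-cKO libraries still held 320 to 414 reads each, so the low level was well above the counting limit.

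*Ikzf2*, which encodes Helios, a family member known mainly from T cells, spans chr1:69531207-69687351 on the minus strand. Its levels were 0.90, 1.67 and 0.84 normalised reads in Ctrl and 4.83, 2.66 and 4.17 in *Upf1*-cKO. The lowest *Upf1*-cKO library was above the highest Ctrl library. The mean rose 3.42-fold, from 1.14 ± 0.46 to 3.89 ± 1.11 (SD, n = 3; log2 fold change 1.19, SE 0.23, 95% interval 0.69 to 1.68, adjusted p = 0.000323). These values rest on 8 to 16 reads per library in Ctrl and 29 to 49 in *Upf1*-cKO, and 3 other genes overlap *Ikzf2* in a count made without strand. Of the list of T and NK cell markers, 3 of 12 were in the table, with summed levels of 1.97 to 2.78 in Ctrl and 4.76 to 6.001 in *Upf1*-cKO. Most of that rise was *Klrb1c* (0.59 to 3.20 normalised reads, called higher). The markers *Nkg7* (0.80 to 1.14) and *Cd247* (0.97 to 0.85) were not called. Their part in the *Ikzf2* value was not tested.

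Because *Ikzf3* fell more than *Ikzf1*, the make-up of the family shifted. Per kilobase of the longest transcript, the 3 genes summed to 292 ± 5.96 in Ctrl and 99.6 ± 1.44 in *Upf1*-cKO, 2.93-fold lower. *Ikzf3* made up 23.45%, 22.2% and 25.3% of that sum in Ctrl and 6.79%, 8.20% and 7.53% in *Upf1*-cKO. The *Ikzf3* shares did not overlap between the groups, and the mean share was 16.1 percentage points lower (exact two-sided permutation test, p = 0.1, Benjamini-Hochberg adjusted p = 0.2 over 4 shares). The smallest p that 20 assignments of 3 against 3 libraries can give is 0.1, so no share could pass a threshold of 0.05. *Ikzf1* accounted for 76.3% ± 1.53 in Ctrl and 92.1% ± 0.60 in *Upf1*-cKO. *Ikzf2* remained a trace component, at 0.042% and 0.42%. A share of this kind does not depend on how libraries were scaled, but it does depend on the gene length used. With the length of all annotated exons instead, the mean *Ikzf3* share differed by -10.9 percentage points.

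*Irf4*, the interferon regulatory factor that is induced in pre-B cells and promotes light chain recombination, spans chr13:30749233-30766981 on the plus strand and overlaps no other annotated gene. It gave 470, 473 and 456 normalised reads in Ctrl (rounded) and 128, 111 and 123 in *Upf1*-cKO. The groups were separated by a wide gap, and the Ctrl libraries differed little among themselves. The fall was 3.86-fold, from 466 ± 9.32 to 121 ± 9.18 (SD, n = 3; log2 fold change -1.94, SE 0.08, 95% interval -2.10 to -1.78, adjusted p = 5.97e-13), and it ranked 75 from the lowest of all genes.

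*Irf8*, the close relative that shares many pre-B functions with IRF4 and also specifies monocytes and dendritic cells, spans chr8:120736358-120756694 on the plus strand. It gave 153, 169 and 170 normalised reads in Ctrl (rounded) and 146, 170 and 150 in *Upf1*-cKO. The libraries of the groups interleaved. The means were 164 ± 9.40 and 155 ± 12.4 (SD, n = 3; log2 fold change -0.08, SE 0.08, 95% interval -0.25 to 0.09, adjusted p = 0.434). The interval does not reach a fall the size of that in *Irf4*, whose own interval ends at -1.78. A predicted gene, *Gm20388*, overlaps *Irf8* on the same strand and could share its reads.

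Per kilobase, *Irf4* supplied 69.1%, 67.0% and 66.2% of the summed *Irf4* and *Irf8* level in Ctrl, and 38.95%, 32.2% and 37.4% in *Upf1*-cKO. On that length *Irf4* was the more abundant of the pair in each Ctrl library and *Irf8* in each *Upf1*-cKO library. The order in *Upf1*-cKO depended on the length used. Per kilobase of all annotated exons, *Irf4* stood at 26.2, 22.5 and 25.2 and *Irf8* at 20.75, 24.0 and 21.3, and the share difference was -27.6 percentage points. The mean share was 31.25 percentage points lower (exact two-sided permutation test, p = 0.1, the smallest possible, adjusted p = 0.2). The summed level of the pair was 145 ± 2.64 in Ctrl and 70.1 ± 1.66 in *Upf1*-cKO. Dendritic cell markers, which cells rich in *Irf8* would bring, summed to 6.16 to 8.92 in Ctrl and 35.6 to 38.9 in *Upf1*-cKO. In *Upf1*-cKO most of that sum was *Flt3*, also a gene of early progenitors. Of the 6 markers measured, 3 were higher: *Flt3*, *Ccr9* (1.54 to 3.25 normalised reads, adjusted p = 0.00954, lost without Ctrl 3 at 0.0555) and *Cox6a2* (0.36 to 1.51, adjusted p = 0.00294). *Siglech* stayed below 1 normalised read in every library, and *Xcr1* and *Clec9a* had no entry. Their part in the *Irf8* level was not tested.

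The 250 bases upstream of a RefSeq start (GRCm38.p6) of *Irf4* and *Irf8* are shown because *Irf4* fell and its relative was not called. Neither window holds the Ikaros core TGGGAA or the composite of GGAA and GAAA separated by 2 bases, searched on both strands, with GGAA before GAAA on the strand read, which is the arrangement that PU.1 or Spi-B binds with IRF4 or IRF8. Over 32851 mouse promoter windows of the same length, 21.6% hold the Ikaros core and 2.3% the composite. A further *Irf8* start has the Ikaros core at base -242.
Irf4, chr13:30748983-30749232, plus strand: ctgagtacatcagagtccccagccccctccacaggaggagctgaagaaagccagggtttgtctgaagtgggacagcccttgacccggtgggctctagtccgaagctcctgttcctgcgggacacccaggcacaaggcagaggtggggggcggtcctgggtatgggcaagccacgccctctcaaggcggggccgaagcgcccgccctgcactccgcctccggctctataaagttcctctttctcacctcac
Irf8, chr8:120736108-120736357, plus strand: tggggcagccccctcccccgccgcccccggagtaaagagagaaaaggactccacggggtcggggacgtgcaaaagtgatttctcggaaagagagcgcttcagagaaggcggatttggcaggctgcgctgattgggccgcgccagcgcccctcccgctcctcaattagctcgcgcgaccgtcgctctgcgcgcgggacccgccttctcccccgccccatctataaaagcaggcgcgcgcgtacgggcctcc

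**Figure D2:**
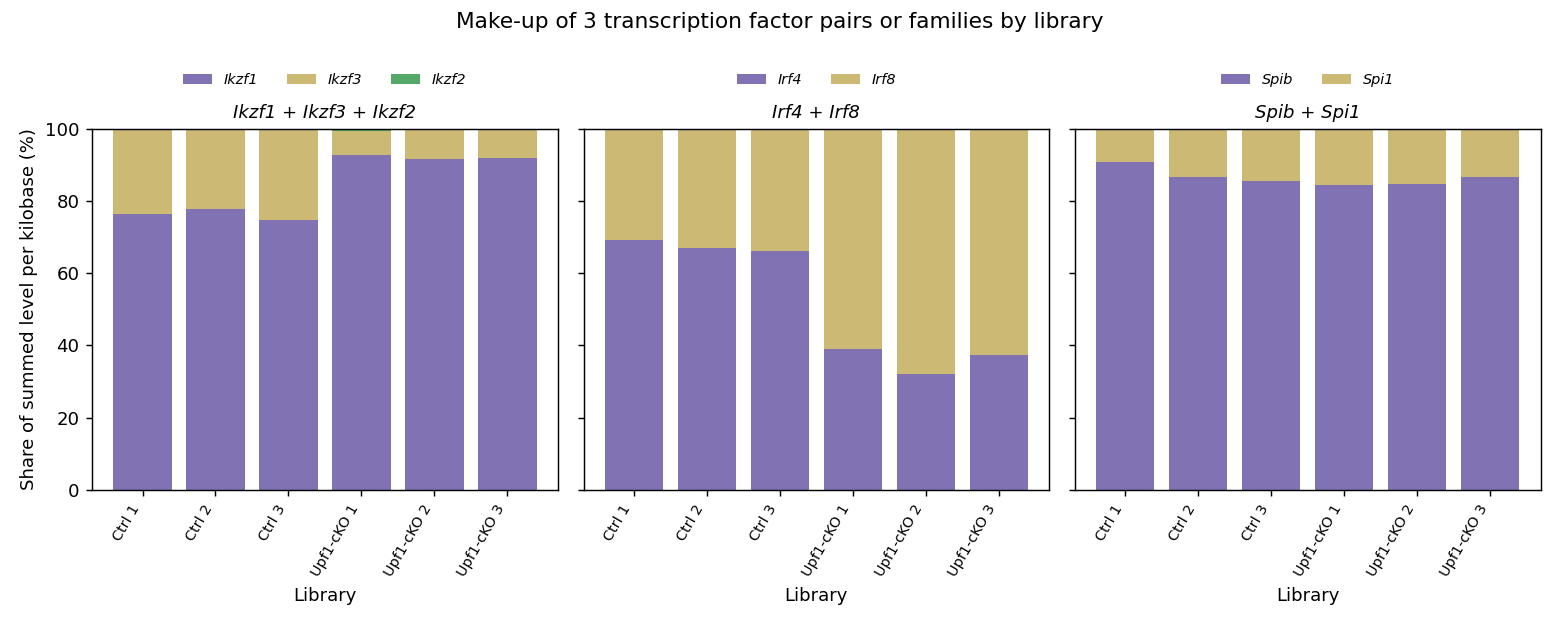
Stacked bars of the share of each gene (percent, from 0 to 100) in the summed level per kilobase of its family or pair, with 1 bar per library. *Ikzf3* takes 22.2% to 25.3% of the Ikaros family level in Ctrl and 6.79% to 8.20% in *Upf1*-cKO, *Irf4* lies below *Irf8* in the 3 *Upf1*-cKO libraries per kilobase of the longest transcript (in 1 of 3 per kilobase of all exons), and *Spib* stays between 84.5% and 90.9%.

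*Spib*, which encodes Spi-B, an ETS factor of lymphoid cells that overlaps with PU.1 in pre-B cells, spans chr7:44525995-44532087 on the minus strand. It gave 378, 248 and 260 normalised reads (rounded) in Ctrl and 107, 96.4 and 94.1 in *Upf1*-cKO. Ctrl 1 stood above the other Ctrl libraries, and all 3 were above every *Upf1*-cKO library. The fall was 2.97-fold, from 295 ± 71.65 to 99.3 ± 7.03 (SD, n = 3; log2 fold change -1.54, SE 0.14, 95% interval -1.86 to -1.22, adjusted p = 1.01e-05). Without Ctrl 1 it was -1.35. Ctrl 1 was also the Ctrl library with the most neutrophil marker reads and the most *Bach2*.

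*Spi1*, which encodes PU.1, a factor that is low in B cells and high in myeloid cells, spans chr2:91082374-91115759 on the plus strand. Its levels were 27.6, 27.9 and 32.0 normalised reads in Ctrl and 14.4, 12.85 and 10.6 in *Upf1*-cKO. The groups did not overlap. The fall was 2.31-fold, from 29.2 ± 2.47 to 12.6 ± 1.92 (SD, n = 3; log2 fold change -1.16, SE 0.13, adjusted p = 9.73e-07), on 125 to 322 reads per library. *Spi1* was lower in the same libraries in which the neutrophil markers were higher. *Spib* made up 90.9%, 86.6% and 85.5% of the summed *Spib* and *Spi1* level per kilobase in Ctrl and 84.5%, 84.6% and 86.65% in *Upf1*-cKO. These shares overlapped, with a mean difference of -2.47 percentage points (exact two-sided permutation test, p = 0.3, adjusted p = 0.4), while the sum was 2.87-fold lower in *Upf1*-cKO. The difference was -0.86 without Ctrl 1.

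*Bach2*, which encodes a repressor that guards the pre-BCR checkpoint and holds back myeloid and plasma cell genes, spans chr4:32238413-32586109 on the plus strand. It gave 986, 799 and 849 normalised reads in Ctrl and 283, 294 and 311 in *Upf1*-cKO (rounded). The 3 *Upf1*-cKO libraries lay within a narrow band far below Ctrl. The fall was 2.97-fold, from 878 ± 97.1 to 296 ± 13.7 (SD, n = 3; log2 fold change -1.56, SE 0.08, 95% interval -1.73 to -1.39, adjusted p = 2.45e-11). Its antisense partner *Bach2os* lies within the locus, and reads of the partners cannot be told apart in a count without strand.

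*Bcl6*, which encodes a zinc finger repressor that protects pre-B cells from DNA damage signals once interleukin 7 wanes, spans chr16:23965050-23988866 on the minus strand. Its levels were 10.99, 6.82 and 8.49 normalised reads in Ctrl and 5.03, 1.67 and 1.22 in *Upf1*-cKO (rounded). Groups did not overlap, but *Upf1*-cKO 1 was well above the other *Upf1*-cKO libraries. The fall was 3.32-fold, from 8.77 ± 2.10 to 2.64 ± 2.08 (SD, n = 3; log2 fold change -1.55, SE 0.33, 95% interval -2.27 to -0.82, adjusted p = 0.00201). It rested on 67 to 103 reads in Ctrl and 14 to 51 in *Upf1*-cKO. Leaving out each library moved it between -1.98 (without *Upf1*-cKO 1) and -1.26 (without *Upf1*-cKO 3). The protein-coding model *Gm37419* overlaps *Bcl6* on the other strand. *Bach2* made up 97.8% ± 0.28 of the summed *Bach2* and *Bcl6* level per kilobase in Ctrl and 98.0% ± 1.61 in *Upf1*-cKO (exact two-sided permutation test, p = 1.0, adjusted p = 1.0). The sign of that difference turned without *Upf1*-cKO 2 or 3.

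The ETS-IRF composite, GGAA followed by GAAA after 2 bases on either strand, was found in 2 of the 12 promoter windows of the factors, against 2.3% of all windows. These were a *Bach2* window, where it starts 17 bases before a RefSeq start, and a *Bcl6* window, where it begins at base -28 next to a run of A. Both RefSeq starts lie inside the spans given above. The 2 windows are shown with the composite in capitals, since the factors that read this element are themselves among the 10. Windows were at hand for 7 of the 10 factors, and none was matched for *Ikzf2*, *Ikzf3* or *Spi1*. The ETS core GGAA alone was in 11 of 12 windows and in 93.4% of all windows. The E-box CAGGTG was in 1 window (17.2% of all), and the BACH and AP-1 element TGAGTCA (4.5% of all) and a GAAA repeat with a gap of 2 bases (3.0% of all) were each in 0. A match describes these letters and not a bound site.
Bach2, chr4:32417185-32417434, plus strand: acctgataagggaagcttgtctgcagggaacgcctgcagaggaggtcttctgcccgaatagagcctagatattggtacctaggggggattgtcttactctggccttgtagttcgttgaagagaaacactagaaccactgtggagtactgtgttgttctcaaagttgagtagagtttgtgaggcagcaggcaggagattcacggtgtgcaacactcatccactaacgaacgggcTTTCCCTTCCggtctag
Bcl6, chr16:23981284-23981533, minus strand: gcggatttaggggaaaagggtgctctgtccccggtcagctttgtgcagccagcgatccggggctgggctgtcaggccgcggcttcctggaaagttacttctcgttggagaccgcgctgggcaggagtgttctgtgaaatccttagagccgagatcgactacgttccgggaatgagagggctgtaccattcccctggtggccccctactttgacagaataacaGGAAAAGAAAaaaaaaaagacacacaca

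*Mef2c*, which encodes a MADS box factor needed for pre-B survival and repair, spans chr13:83504017-83667079 on the plus strand. It gave 168, 186 and 200.2 normalised reads in Ctrl and 146, 166 and 150.4 in *Upf1*-cKO. The highest *Upf1*-cKO library was just under the lowest Ctrl library. The mean was 1.20-fold lower, 184.9 ± 16.1 against 154 ± 10.6 (SD, n = 3; log2 fold change -0.26, SE 0.08, 95% interval -0.43 to -0.08, adjusted p = 0.0147). The call was lost when libraries were scaled to total reads (-0.05, adjusted p = 0.654), with quantile normalization (-0.16, adjusted p = 0.108) and without limma's intensity trend and robust estimation (adjusted p = 0.0796). It was also lost without Ctrl 3 (-0.20, adjusted p = 0.06), without *Upf1*-cKO 1 (-0.22, adjusted p = 0.0878) and without *Upf1*-cKO 3 (-0.24, adjusted p = 0.0671). *Mef2c* was the member with the most annotated transcripts, 31, and the 1 member for which the annotation holds a transcript marked as a target of nonsense-mediated decay.

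**Figure D3:**
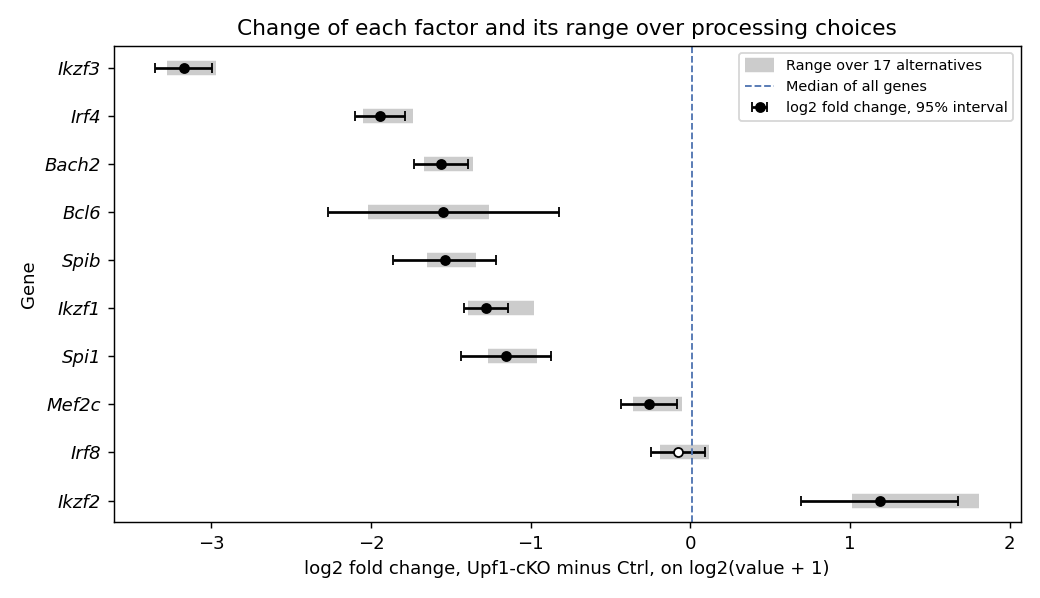
log2 fold change of each factor (*Upf1*-cKO minus Ctrl, on log2(value + 1)) with its 95% interval, over a grey band for the range across 17 alternative analyses. Filled points passed the adjusted p threshold of 0.05, the open point (*Irf8*) did not, and the dashed line is the median of all genes at 0.01.

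Ranked by level per kilobase in Ctrl, *Ikzf1* came first at 223, followed by *Spib* at 106, *Bach2* at 98.85 and *Irf4* at 97.9. *Spib*, *Bach2* and *Irf4* could not be ordered, since their libraries overlapped. *Ikzf3* (69.0), *Irf8* (47.3), *Mef2c* (29.45), *Spi1* (14.3), *Bcl6* (2.23) and *Ikzf2* (0.12) followed in non-overlapping steps. Those steps hold for the longest transcript, since per kilobase of all annotated exons *Mef2c* (10.7 to 12.7) overlapped *Spi1* (10.2 to 11.9). In *Upf1*-cKO, *Ikzf1* stayed first at 91.7 per kilobase, and *Irf8* moved from 6 to 2 in the order at 44.8, though it stood at 5 per kilobase of all annotated exons. *Spib* and *Bach2* came next at 35.6 and 33.3, and *Irf4* and *Mef2c* at 25.3 and 24.6, each pair overlapping. *Ikzf3* at 7.47 stood beside *Spi1* at 6.20, and *Bcl6* at 0.67 beside *Ikzf2* at 0.42, again overlapping. The coefficient of variation within a group was lowest for *Ikzf1* in *Upf1*-cKO, at 1.94%, and highest for *Bcl6* in *Upf1*-cKO, at 78.8%.

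The 9 called factors had the same direction under each of the 3 other scalings tried. Scaling to total reads moved the median of all genes to 0.19 and turned the split of calls from 52.6% higher to 72.8% higher, while centring on library medians moved it to 40.7% higher. Over all 17 alternatives the log2 fold change of *Ikzf3* stayed between -3.28 and -2.97, that of *Irf4* between -2.05 and -1.74 and that of *Ikzf1* between -1.39 and -0.98. *Irf8* was the member whose sign varied, from -0.19 to 0.12, without passing the test.

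The genes whose pattern over the 6 libraries was most like that of *Ikzf3*, *Irf4* and *Bach2*, the 3 factors with the largest changes on log2(value + 1), were described by Pearson's r on log2(value + 1), over 9201 genes with a mean of at least 3. The libraries fall into 2 groups, so r mainly reflects the group difference and how evenly the replicates follow it. For *Ikzf3*, the closest were *Stk4* (r = 0.9996), a Hippo pathway kinase, *Btrc* (r = 0.9995), a ubiquitin ligase subunit, and *Dnajc9* (r = 0.9992), a histone chaperone. *Btrc* fell from 176 to 48.9 normalised reads. For *Irf4*, they were *Ptprc* (r = 0.9999), which encodes CD45, *Msn* (r = 0.9994), which encodes moesin, and the histone pseudogene *H2bu1-ps* (r = 0.9993). For *Bach2*, they were the Src family kinase *Lyn* (r = 0.9998), *H2ax* (r = 0.9998) and *Ptgr1* (r = 0.9992). *Lyn* fell from 166.5 to 77.4 and *H2ax* from 557 to 262 normalised reads.

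Of 24 listed relatives of the factors, 21 were in the table, with 7 called higher and 8 lower, against 27.7% and 25.0% of all genes. In the IRF family 4 of 7 rose and *Irf3* (-0.23) was called lower, with a median log2 fold change of 0.67. The *Irf3* call (adjusted p = 0.0389) was lost without Ctrl 2, Ctrl 3, *Upf1*-cKO 1 or *Upf1*-cKO 3, on scaling to total reads, and without limma's trend and robust estimation. *Irf7*, the amplifier of type I interferon induction, rose from 3.50 to 11.3 normalised reads (log2 fold change 1.43, adjusted p = 2e-05), and *Irf9*, a subunit of the interferon-activated ISGF3 complex, rose from 27.5 to 56.4 (1.01, adjusted p = 6.62e-07). *Irf5* (0.88) and *Irf1* (0.67) rose as well, in contrast to *Irf4*. Among ETS factors near PU.1 and Spi-B, 6 of the 9 measured fell and 2 rose, with a median of -0.32, and 2 fell when libraries were scaled to total reads. *Erg*, an ETS factor of stem and early progenitor cells, gave 41.9, 40.7 and 33.5 normalised reads in Ctrl and 184, 188 and 182 in *Upf1*-cKO (rounded). It rose 4.77-fold (log2 fold change 2.23, adjusted p = 1.11e-12), opposite to *Spib* and *Spi1*. *Etv6* rose (0.79), while *Ets2* (-1.37) and *Ets1* (-0.67) fell. The stem and progenitor markers *Ly6a*, *Meis1* and *Hlf* were higher in the same libraries, with summed levels of 5.91 to 8.49 in Ctrl and 24.1 to 27.0 in *Upf1*-cKO, and their part in the *Erg* level was not tested. *Ikzf5*, the 1 measured relative of Ikaros outside the members, was not called (-0.22). Of the BACH, BCL6 and MEF2 relatives, *Mef2d* fell (-0.55) and *Bcl6b* rose (0.74) among 4 measured, the latter call being lost without Ctrl 3 (adjusted p = 0.0614).

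Of 44 listed cofactors, 43 were measured, with 10 called higher and 18 lower, against the same 27.7% and 25.0% of all genes. Ikaros acts in the nucleus with the NuRD and SIN3 repressor complexes and with the separate corepressor CtBP1, and 12 of these 16 genes fell and 1 rose, with a median of -0.31. Scaled to total reads, 6 fell and 3 rose. The falls were small beside those of *Ikzf1* and *Ikzf3*, led by *Ctbp1* (-0.73), *Rbbp4* (-0.67), *Rbbp7* (-0.65) and *Hdac1* (-0.52). Class IIa histone deacetylases bind and restrain MEF2 factors, and *Hdac9* fell from 72.6 to 17.1 normalised reads (log2 fold change -2.02, adjusted p = 3.64e-11). *Hdac5*, of the same class, fell from 166 to 80.9 (-1.03), while *Hdac7* and the MEF2C-activating kinase gene *Mapk7* rose (0.41 and 0.57), the *Hdac7* call being lost without limma's intensity trend and robust estimation (adjusted p = 0.0501). In all, 3 of 7 MEF2C regulators rose and 2 fell. Of the partners of IRF4 and IRF8, 3 of 5 measured were called higher and 1 lower. The count called lower was 2 in 8 alternatives, among them the replicate block, voom, edgeR and DESeq2, and 0 on scaling to total reads. *Batf*, which forms AP-1 dimers that bind with IRF4, rose from 2.34 to 7.42 normalised reads (1.42, adjusted p = 0.000134), and *Jun* rose (0.65), while *Tcf3* fell (-0.39), a call lost on scaling to total reads (adjusted p = 0.0632). *Junb* (0.36) was called higher, a call lost on centring library medians (adjusted p = 0.0845), with quantile normalization (0.0965), and without Ctrl 3 (0.0752), *Upf1*-cKO 1 (0.0537) or *Upf1*-cKO 2 (0.0572). The BACH2 partner gene *Mafg* rose (0.94) among 3 small MAF genes, and of 7 BCL6 corepressors *Bcorl1* (0.79) and *Ncor1* (0.22) rose and *Bcor* (-0.31) fell. The *Ncor1* call was lost without *Upf1*-cKO 1 (adjusted p = 0.061) or 3 (0.0529), on centring library medians (0.192) and without limma's trend and robust estimation (0.0711), and the *Bcor* call on scaling to total reads (-0.11, adjusted p = 0.377), with quantile normalization (0.0694), without limma's trend and robust estimation (0.083), and without Ctrl 1 (0.0525) or *Upf1*-cKO 3 (0.0545). A further list held the mouse genes of the ubiquitin ligase known to degrade Ikaros and Aiolos in human cells when lenalidomide is bound. Of its 5 subunits, 2 were called lower, *Cul4b* at -0.60 and *Ddb1* at -0.21, and the substrate receptor gene *Crbn* was not called (-0.16). The *Ddb1* call was lost without Ctrl 2 (adjusted p = 0.111) and without *Upf1*-cKO 1 (0.0869), 2 (0.0801) or 3 (0.079), without limma's trend and robust estimation (0.12) and on scaling to total reads (0.929).

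**Figure D4:**
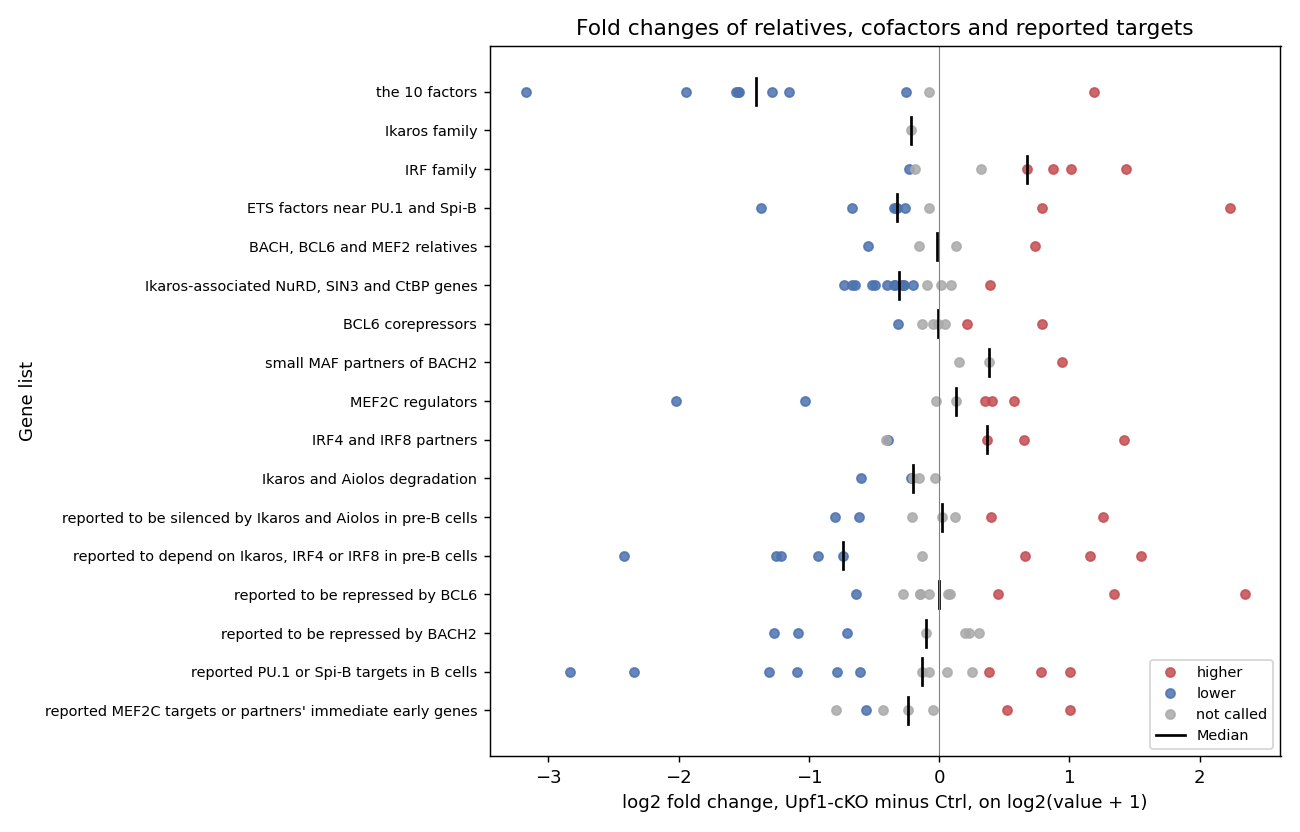
log2 fold change of every measured gene (points) of the 10 factors and of the lists of relatives, cofactors and reported targets, red for higher, blue for lower and grey for not called, with a black bar at each list's median. The factors have a median of -1.41, and the medians of the other lists lie between -0.74 and 0.67.

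Of 56 genes reported as targets of the factors, 53 were measured, with 13 called higher and 18 lower. With 27.7% and 25.0% of all genes called in these directions, the counts show little about the targets as a group. Among 7 genes that Ikaros and Aiolos are reported to silence, 2 rose and 2 fell (median 0.02), and 4 rose when libraries were scaled to total reads. *Vpreb2*, a surrogate light chain gene, rose from 12.6 to 30.6 normalised reads (1.26) and its near copy *Vpreb1* rose from 171 to 226 (0.40), but reads of these near-identical genes can be misassigned. *Igll1*, the partner chain gene, gave 299 and 303 and was not called. The cell cycle genes *Ccnd3* (-0.80) and *Cdk6* (-0.62) fell. Among 9 genes reported to depend on Ikaros, IRF4 or IRF8, 5 fell and 3 rose (median -0.74). *Il2ra*, the CD25 gene that marks small pre-B cells, gave 13.4, 14.2 and 12.4 normalised reads in Ctrl and 1.61, 1.76 and 1.64 in *Upf1*-cKO. It fell 7.98-fold (-2.42, adjusted p = 2.96e-09), and *Ciita* (-1.25) and *Cd2* (-1.21) fell as well, the latter also a gate marker on the protein. The recombinase gene *Rag1* moved the other way, from 71.4 to 208 (1.55, adjusted p = 5.28e-07).

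Among 13 reported PU.1 or Spi-B targets, 6 fell and 3 rose (median -0.14). *Cd22*, an inhibitory receptor of B cells, gave 205, 206 and 209 normalised reads in Ctrl and 34.9, 22.4 and 28.3 in *Upf1*-cKO, and fell 7.25-fold (-2.84, adjusted p = 2.45e-11). *Blk*, a Src family kinase of the pre-BCR pathway, fell 5.15-fold, from 216 ± 14.7 to 42.0 ± 4.97 (SD, n = 3; -2.34, adjusted p = 7.93e-13), *Fcgr2b* fell by 1.31 and *Lyn* by 1.09 on the log2 scale. *Bcl11a* rose from 145.5 to 293 normalised reads (1.01). Of the genes that BCL6 represses, 3 of 10 measured rose and 1 fell (median -0.01), and 5 rose on scaling to total reads. The activation marker *Cd69* rose from 8.66 to 46.8 normalised reads (2.34, adjusted p = 1.71e-09), and *Cdkn1a*, the cell cycle inhibitor p21, rose from 25.1 to 64.4 (1.34, adjusted p = 8.86e-09). *Atr* rose (0.45), and *Cdkn2a* (-0.64) was called lower at 1.39 and 0.55 normalised reads, a call lost without either Ctrl 1 (adjusted p = 0.0971), Ctrl 2 (0.113), *Upf1*-cKO 2 (0.121) or *Upf1*-cKO 3 (0.128). It was also lost with edgeR (0.0532), DESeq2 (0.0817) and scaling to total reads (0.064), and the *Cdkn2a* groups overlapped.

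Of 7 measured genes that BACH2 is reported to repress, 3 fell and 4 were not called (median -0.10). *Blvrb*, a heme metabolism enzyme, fell from 8.55 to 2.96 normalised reads (-1.27), and the ferritin genes *Fth1* (-1.08) and *Ftl1* (-0.71) were lower, the ferritins also having many near copies in the genome. The *Fth1* call was lost without Ctrl 1 (adjusted p = 0.0758), Ctrl 2 (0.0618), *Upf1*-cKO 1 (0.0618) or *Upf1*-cKO 3 (0.0951), and on scaling to total reads (0.0793). The classic BACH2 target *Hmox1* was near the detection limit, at 0.86 and 1.11 normalised reads. Of 7 immediate early genes tied to MEF2C, *Nr4a1* (1.002) and *Ier2* (0.52) rose and *Egr1* (-0.56) was called lower, a call lost without Ctrl 1 (adjusted p = 0.0574), Ctrl 2 (0.146), *Upf1*-cKO 2 (0.167) or *Upf1*-cKO 3 (0.0625), with DESeq2 (0.0584) and on scaling to total reads (0.126). The count called lower in this list rose to 2 with the replicate block, voom, median centring, quantile normalization and without Ctrl 3, and to 3 with edgeR and without Ctrl 2.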

How the data were processed

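RNA sequencing was measured in 6 libraries of sorted early LPre-B cells, 3 Ctrl and 3 *Upf1*-cKO, grouped by the genotype in the labels. Per the labels and methods, rRNA had been depleted, and the authors trimmed reads with cutadapt 4.0, aligned them to mm10 with HISAT2, counted them per gene with featureCounts 2.0.1 without strand and analysed them with limma 3.48.0. The signal deposited by the authors is linear, and its unit was worked out from its values as reads plus 0.5 divided by a library's scaled size (normalised reads). Whole reads were recovered for 100% of values (tolerance 0.05). Every gene exceeded 0.5 CPM in at least 3 libraries, so lower genes have no entry. Columns of per-sample values not used numbered 0.

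Symbols came from RefSeq GRCm38.p6 (13008 of 13426 genes, 418 unnamed), and transcript lengths from GENCODE for GRCm38. Differences were tested two-sided on log2(value + 1) by limma 3.58.1 (R 4.3.3), with an intensity trend, robust estimation and Benjamini-Hochberg adjustment over all genes. The pseudocount makes fold changes of low genes too small. Shares were compared by an exact permutation test. The study describes its replicates as biological, while the labels number them without naming mice. The column headers add a number for each library whose meaning is not given. The p-values measure the spread between these samples. The labels name no batch. The spread within groups was above counting noise (chi-square over its degrees of freedom, 4.36 to 21.3). Intervals cover the fit, not other error.

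The members and gene lists were chosen with earlier results of these data known, and the lists were written from general knowledge. Named genes were all members, *Upf1*, at most 4 genes per list with the largest changes past adjusted p 0.05, and the 3 genes most like each of the 3 most changed members on that scale. *Igll1*, *Crbn*, *Hmox1*, *Ikzf5*, *Irf3*, *Bcl11a* and marker genes were named outside that rule, with their values seen. Alternatives were a replicate block, limma without trend, voom, edgeR 4.0.16 and DESeq2 1.42.0 on recovered reads, other scalings, filters and pseudocounts, and leaving out each library. The fits were tested on simulated data.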

Additional observations from a re-analysis of the deposited data

How the results depend on the processing

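Over 17 alternatives, 7 or 8 of the 10 factors were called lower and 1 higher. *Mef2c* was the member whose call was lost, in 6 of the 17, and the values of the other 9 kept their side of the threshold in all 17. edgeR and DESeq2 on the recovered reads called 3651 and 3312 genes higher and 3343 and 3281 lower, close to limma's 3725 and 3351. Scaling to total reads lowered the count of genes called lower to 1936, and it raised the median of all genes to 0.19. The gene with the most reads held 22.2%, 23.8% and 16.4% of reads in Ctrl 1, 2 and 3. In *Upf1*-cKO 1, 2 and 3 it held 16.55%, 13.75% and 13.9%, and its part in that shift was not tested. Correlations of deviations between same-numbered libraries were 0.13, -0.06 and -0.08 over 9202 genes. The Ctrl and *Upf1*-cKO libraries of each replicate number carry neighbouring numbers in the column headers. With so few libraries, the low correlations cannot exclude that they were paired. The fit with the replicate block called 8 factors lower and 1 higher, and 3668 genes higher and 3321 lower, and it changed no call among the factors. With the block, the limma adjusted p of *Spib* was 4.77e-09 (1.01e-05 without it), and that of *Bcl6* was 3.61e-05 (0.00201 without it). Leaving out each library moved the difference in the *Bach2* share of the *Bach2* and *Bcl6* level between -0.37 and 1.11 percentage points, turning negative without *Upf1*-cKO 2 (-0.18) and without *Upf1*-cKO 3 (-0.37). *Ddb1* moved from -0.21 to 0.001 with quantile normalization, and the cause was not tested. Depth limits *Ikzf2* and *Bcl6*, which rest on as few as 8 and 14 reads per library.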

Other observations

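Of the plasma cell genes, *Sdc1*, the CD138 gene, fell from 30.1 to 15.5 normalised reads (log2 fold change -0.91, adjusted p = 1.9e-05 by limma). *Prdm1*, which BACH2 and BCL6 are known to repress, stood at 0.87 and 0.58 and was not called. Genes of later B cells split in direction. *Cd74*, the invariant chain of class II MHC, rose from 11.9 to 34.5 normalised reads (1.46, adjusted p = 1.8e-07) and *Cr2*, which encodes complement receptors, rose from 5.39 to 10.1 (0.81, adjusted p = 0.00102), while *Cd22* and *Il2ra* fell. Of the 12 early B lineage markers, 6 were higher and 2 lower. *Kit*, the receptor of pro-B and earlier cells, rose from 8.70 to 39.2 (2.07, adjusted p = 1.44e-09), and *Dntt*, the terminal transferase gene of pro-B cells, rose from 170 to 527 (1.64, adjusted p = 4.48e-07). The interleukin 7 receptor gene *Il7r* fell from 342 to 224 (-0.61, adjusted p = 6.53e-06), as did *Cd79a*.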
